A study of Mus musculus with 12 samples.

Results

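The 32 genes described here mark the blood vessels of the brain. Of these, 22 mark the endothelium, the layer of cells that lines the vessel, and 10 mark mural cells, the pericytes and smooth muscle cells wrapped around it. They were chosen by name, each from its known use as a marker, with earlier results of these data known. All 32 had an entry of their own among the 23352 gene entries of the deposited table. Poly-A selected RNA from mouse hippocampus had been sequenced, with 3 libraries in each of 4 groups: N40K mice at 12 months, wild-type (WT) mice at 12 months, N40K mice at 3 months and WT mice at 3 months. N40K mice, all of the line Tg396 on C57BL/6J, carried a truncated U1-70K (the splicing protein encoded by Snrnp70) under a modified CaMKIIa promoter that is described as specific to neurons, and WT mice were C57BL/6J animals without it. No other allele or treatment was given for any group, and vascular cells are not the cells in which the promoter is said to act. Values are FPKM, sequenced fragments scaled by transcript length and by library depth, a unit that allows levels of different genes to be compared per length. Tests were made on log2(FPKM + 1) with limma over all 13945 genes that reached 1 FPKM in at least 3 of the 12 libraries. A gene was called changed at a Benjamini-Hochberg adjusted p under 0.05, and an error after a log2 difference is its SE.

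Brain endothelium forms the blood-brain barrier: its cells are sealed by tight junctions and carry transporters that admit glucose, lipids and hormones and expel many drugs. Growth factor receptors on these cells read signals from neighbouring cells, while pericytes are held at the capillary wall by the platelet-derived growth factor receptor and arteriolar smooth muscle sets vessel width with contractile proteins. In bulk tissue such transcripts report both how many vascular cells a sample held and how much of each RNA a cell contained, and fewer cells of a type cannot be told apart from less RNA per cell.

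Snrnp70 checked the labels: it stood at 305, 320 and 259 FPKM in N40K and 138, 96.0 and 133 FPKM in WT at 12 months, and at 399, 401 and 377 FPKM in N40K and 179, 161 and 179 FPKM in WT at 3 months. The 8 neuronal markers summed to 2293 to 2354 FPKM in N40K and 2518 to 2655 FPKM in WT at 12 months, and to 2309 to 2432 FPKM in N40K and 2435 to 2736 FPKM in WT at 3 months, lower in every N40K library than in any WT library of its age. At 3 months the mean level of these markers, as log2(FPKM + 1) centred on all 12 libraries, overlapped between the genotypes. It ran from -0.13 to -0.024 in N40K and from -0.052 to 0.061 in WT. The part of the neuronal markers in the genotype results was not tested. The depth, estimated from the steps between low values, was about 39.9 to 97.1 M (mega) fragments per library. The labels do not give the sex of the mice. Xist, which is expressed from the inactive X chromosome of females, was above 10 FPKM in only 3 libraries, all of them at 3 months (N40K replicate 3, WT replicates 2 and 3), and the 12-month libraries bear a separate run of library numbers. Age therefore cannot be told apart from these differences. The Xist libraries were also uneven between the genotypes at 3 months, a limit shared by every genotype comparison that uses those libraries. Ttr, the choroid plexus transcript, varied from 25.2 to 2977 FPKM in N40K at 12 months and from 122 to 5813 FPKM in WT at 3 months, so the amount of that tissue differed between libraries of one group.

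Averaged over the 12 libraries, the most abundant member was Vtn, the matrix protein vitronectin made by brain pericytes, at 45.6 FPKM. It was followed by Ly6c1 at 36.4, the glucose transporter gene Slc2a1 at 36.2 and Itm2a at 31.6 FPKM. At the low end were Notch3 at 2.09, Abcc9 at 1.46, Kcnj8 at 1.34 and the smooth muscle gene Cnn1 at 0.475 FPKM. Cnn1 reached 1 FPKM in 2 libraries and was the only member that failed the filter, so 31 were tested. The spread within a group was a median SD of 0.125 on the log2 scale for the 31 members, against 0.0829 for all genes tested. The 3 tested smooth muscle genes were the least even, with a median SD of 0.419, whereas the endothelial surface genes had 0.0952. Several members are not confined to vessels: in rodent brain Slco1c1 is also made by astrocytes and Slc16a1 by oligodendrocytes.

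In 12-month hippocampus 2 genes of barrier transport, Slco1a4 and Abcb1a, and 2 of growth factor reception, Flt1 and Tie1, were higher in N40K than in WT. So was the pericyte gene Abcc9, while Ramp2 was lower. These 6 of 31 members, 5 higher and 1 lower, compare with 18.9% of all genes called in this comparison, 11.2% higher and 7.71% lower, so the share called among the members was near the background. Without the library highest in Ttr of each group, 3 members were called, all higher, while the number of all genes called fell to 1368, against 2632 with every library. Tie1 (0.36, adjusted p = 0.0628), Abcc9 (0.29, adjusted p = 0.0711) and Ramp2 (-0.26, adjusted p = 0.0522) lost their calls there with differences no smaller than before. With Ttr as a covariate and every library kept, 8 members were called, 7 higher and 1 lower, and 2319 of all genes. In that fit 22 members had an unadjusted p under 0.05 (limma), against 13 in the main fit, and the member median was 0.27. In the main fit the direction was more uniform than the calls. There 28 of the 31 estimates were positive (90.3%), against 51.6% of all genes. Their median was 0.21 on the log2 scale, against 0.0066 over all genes. The members were a median of 0.17 higher for the 22 endothelial genes and 0.25 for the 9 tested mural genes, in N40K minus WT. The members were chosen with earlier results of these data known, and they share their libraries and cell types. These counts are therefore a description and not a test.

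**Figure D1:**
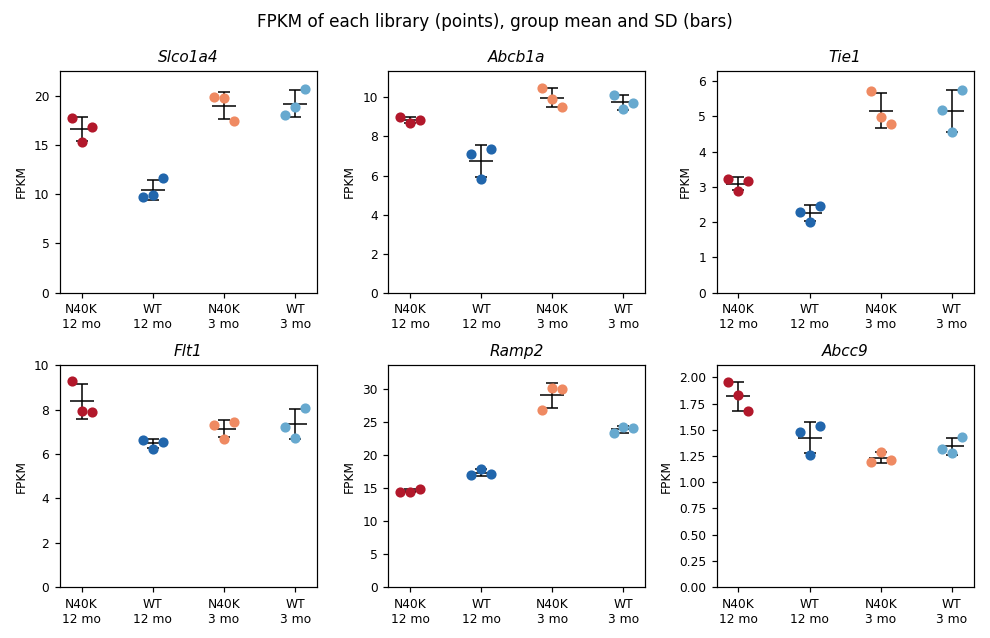
FPKM of the 6 members called between N40K and WT, one point per library, with bars for the group mean and SD, in the 4 groups. At 12 months the N40K points of Slco1a4, Abcb1a, Tie1, Flt1 and Abcc9 lie above all WT points and those of Ramp2 below them; at 3 months only Ramp2 is separated, with N40K above WT.

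Slco1a4 encodes an organic anion transporter of the barrier. It measured 17.7, 15.3 and 16.8 FPKM in N40K and 9.72, 9.94 and 11.6 FPKM in WT at 12 months, a difference of 0.63 ± 0.08 on the log2 scale (adjusted p = 0.000567). The groups did not overlap, and the mean was 1.59 times as high in N40K. At 3 months it measured 19.8, 19.7 and 17.4 FPKM in N40K and 18.1, 18.8 and 20.7 FPKM in WT, overlapping ranges with a difference of -0.02 ± 0.08 (adjusted p = 0.931). WT at 12 months was thus the one group with low values, and the N40K libraries of that age lay closer to the 3-month libraries.

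Abcb1a, the gene of the drug efflux pump P-glycoprotein, had 8.98, 8.71 and 8.83 FPKM in N40K and 7.11, 5.82 and 7.34 FPKM in WT at 12 months (0.35 ± 0.07, adjusted p = 0.00658). All 3 N40K libraries were above all 3 WT libraries. At 3 months the values were 10.5, 9.93 and 9.52 FPKM in N40K and 10.1, 9.39 and 9.71 FPKM in WT, which overlapped. Abcb1b, its near copy, was also higher in N40K at 12 months (0.22 ± 0.06, adjusted p = 0.0328), and reads that fit both genes could have been shared between them.

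Among the receptors, Tie1, an orphan partner of the angiopoietin receptor, had 3.22, 2.87 and 3.17 FPKM in N40K and 2.29, 2.01 and 2.47 FPKM in WT at 12 months (0.33 ± 0.09, adjusted p = 0.021). Its 3-month values were 5.72, 4.97 and 4.79 FPKM in N40K and 5.18, 4.55 and 5.73 FPKM in WT. The groups were separate at 12 months only. Flt1, a receptor and decoy for vascular endothelial growth factor (VEGF), had 9.29, 7.92 and 7.90 FPKM in N40K and 6.65, 6.23 and 6.55 FPKM in WT at 12 months (0.32 ± 0.07, adjusted p = 0.0115). At 3 months it had 7.29, 6.70 and 7.44 FPKM in N40K and 7.22, 6.73 and 8.07 FPKM in WT, with overlap. The call for Tie1 was lost without N40K replicate 1 (0.31, adjusted p = 0.0772), N40K replicate 3 (0.32, adjusted p = 0.057) or WT replicate 2 (0.28, adjusted p = 0.0721) of the 12-month groups.

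Abcc9 encodes the sulfonylurea receptor subunit of the pericyte potassium channel. It had 1.95, 1.83 and 1.68 FPKM in N40K and 1.48, 1.26 and 1.53 FPKM in WT at 12 months (0.22 ± 0.07, adjusted p = 0.0419), and 1.19, 1.29 and 1.22 FPKM in N40K and 1.32, 1.28 and 1.43 FPKM in WT at 3 months. The 12-month N40K libraries were the highest of all. This was the weakest of the calls, kept in 6 of 24 alternative settings, and the gene overlaps an antisense transcript, whose reads cannot be told apart here because the strand setting is not given in the sources used. The channel's other subunit, Kcnj8, was at 1.56, 1.45 and 1.17 FPKM in N40K and 1.45, 0.948 and 0.98 FPKM in WT at 12 months and was not called (0.18 ± 0.10, adjusted p = 0.239).

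The stretches of 250 bases before the start of the endothelial members that were higher at 12 months are shown because they hold a short motif, AGGAAG, that resembles the core bound by ETS factors, the family that includes the endothelial factors Erg, Fli1 and Ets1. They are RefSeq sequences of GRCm38.p6, 5′ to 3′ on the gene's strand, with AGGAAG or its reverse complement CTTCCT in capitals. Slco1a4 lies at chr6:141856221-141856470 on the minus strand, Abcb1a at chr5:8566841-8567090 on the plus strand, and Tie1 at chr4:118489850-118490099 and Flt1 at chr5:147726012-147726261 on the minus strand.
Slco1a4: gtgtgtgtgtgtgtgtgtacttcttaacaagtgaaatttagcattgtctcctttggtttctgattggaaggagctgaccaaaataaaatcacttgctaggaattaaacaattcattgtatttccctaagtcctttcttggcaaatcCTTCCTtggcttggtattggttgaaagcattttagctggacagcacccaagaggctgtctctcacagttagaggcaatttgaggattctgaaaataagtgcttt
Abcb1a: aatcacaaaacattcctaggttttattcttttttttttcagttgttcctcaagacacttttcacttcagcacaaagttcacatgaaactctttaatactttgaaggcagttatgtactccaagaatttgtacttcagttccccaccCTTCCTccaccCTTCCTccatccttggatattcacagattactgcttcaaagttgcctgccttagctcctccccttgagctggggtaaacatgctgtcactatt
Tie1: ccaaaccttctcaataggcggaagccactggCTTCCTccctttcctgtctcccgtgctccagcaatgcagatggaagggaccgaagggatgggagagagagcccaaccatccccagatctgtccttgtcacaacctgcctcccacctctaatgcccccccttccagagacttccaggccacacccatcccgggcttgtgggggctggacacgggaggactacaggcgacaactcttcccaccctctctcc
Flt1: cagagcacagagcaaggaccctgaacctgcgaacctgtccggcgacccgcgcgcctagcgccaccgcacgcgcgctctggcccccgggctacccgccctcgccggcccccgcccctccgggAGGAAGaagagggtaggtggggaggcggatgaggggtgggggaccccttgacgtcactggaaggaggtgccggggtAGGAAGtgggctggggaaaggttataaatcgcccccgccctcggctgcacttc

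The motif began 104 bases before the start in Slco1a4, 104 and 93 in Abcb1a, 219 in Tie1 and 129 and 53 in Flt1. In the promoter windows, searched on both strands, it was present in 10 of the 16 endothelial members with a sequence and 0 of the 7 mural members. It was in 38.4% of the 27025 genes with such a window, so a match is common and describes the letters only. The TATAAA motif was in 4 of the 16 endothelial and 1 of the 7 mural windows, against 15.7% of all genes, and AACAAT, a core bound by SOX factors, in 3 of 16 and 1 of 7, against 12.2%.

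The members that were not called at 12 months mostly lay on the same side. Without overlap, 13 members were above WT in N40K and 1 was below, against 21.3% and 17.5% of all genes (38.8% in all). Besides those called these were the angiopoietin receptor gene Tek (0.25 ± 0.08, adjusted p = 0.058), the junction genes Cldn5, Pecam1 and Esam, the surface and secreted genes Ly6c1 and Vwf, and the mural genes Pdgfrb (0.25 ± 0.08, adjusted p = 0.0564) and Notch3 (0.31 ± 0.10, adjusted p = 0.0555). Pdgfrb, the receptor that holds pericytes at the vessel, had 5.35, 5.45 and 5.42 FPKM in N40K and 4.74, 3.77 and 4.65 FPKM in WT at 12 months. None of the 4 junction genes was called by limma, with 2 of 4 higher at an unadjusted p under 0.05, and their differences ran between 0.17 and 0.23. The glucose transporter Slc2a1 (-0.03 ± 0.07), the lactate transporter Slc16a1 (0.01 ± 0.09), the thyroid hormone transporter Slco1c1 (-0.08 ± 0.20) and the main VEGF receptor Kdr (0.00 ± 0.12) had estimates near 0.

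**Figure D2:**
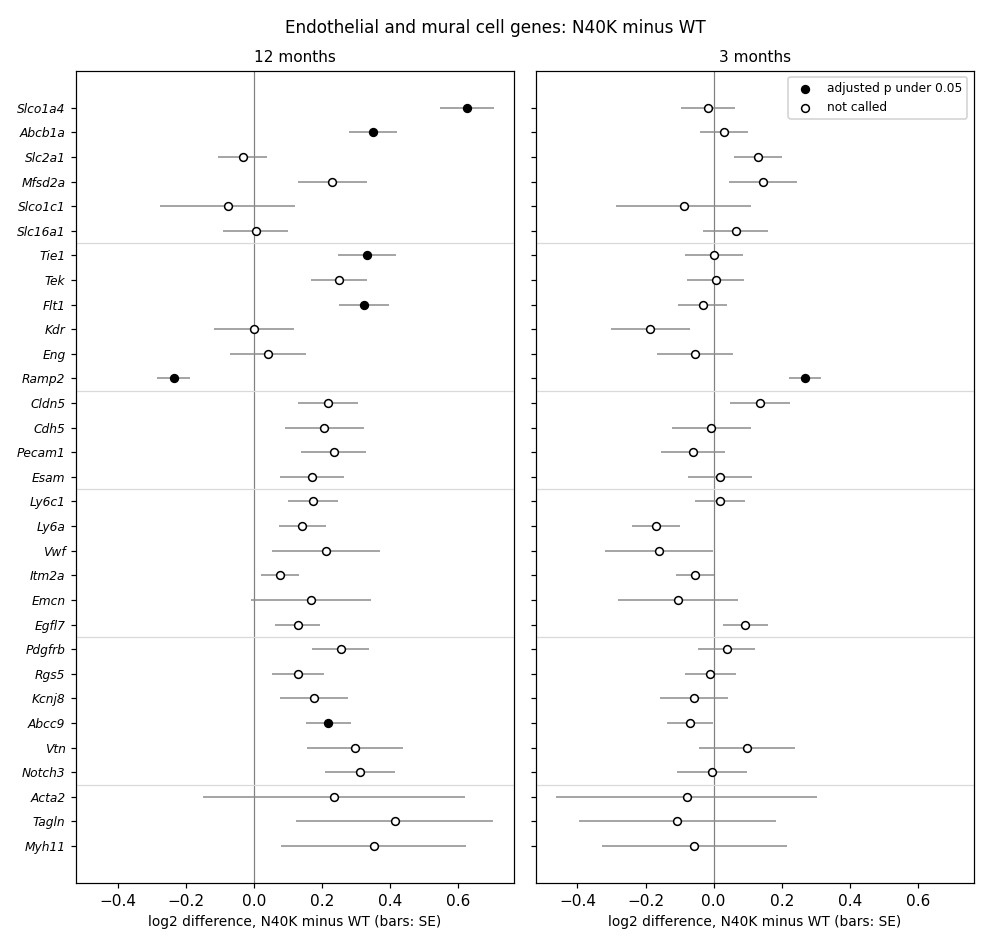
Log2 difference, N40K minus WT, of the 31 tested members at 12 months on the left and 3 months on the right, with bars of 1 SE and filled points for an adjusted p under 0.05. At 12 months 28 of 31 points lie right of 0 and 6 are filled; at 3 months 13 lie right of 0 and only Ramp2 is filled.

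At 3 months 1 of 31 members was called, Ramp2, which was higher in N40K, while 11.4% of all genes were called, 7.95% higher and 3.49% lower. Of the called genes 69.5% were higher, a share that was 52.7% with median-ratio scaling. The median of the members was -0.0096, against 0.020 over all genes, and lay between -0.078 and 0.069 with 1 library left out. Without overlap, 2 members (Mfsd2a and Ramp2) were above WT and 1 (Ly6a) was below, against 20.4% and 11.5% of all genes (31.9% in all). Mfsd2a, the transporter of lysolipids that keeps endothelial transcytosis low, differed by 0.15 ± 0.10 (adjusted p = 0.416). Averaged over both ages, 2 members were higher in N40K, Slco1a4 (0.30 ± 0.06, adjusted p = 0.00261) and Abcb1a (0.19 ± 0.05, adjusted p = 0.016), against 25.0% of all genes called, 15.5% higher. Of all called genes 61.9% were higher, or 49.1% with median-ratio scaling. By limma 0 members were called lower, 0 also at an unadjusted p under 0.05, against 9.54% of all genes. Without the 3 libraries that hold Xist reads, or without the library highest in Ttr of each group, the 3-month call for Ramp2 was lost (0.28, adjusted p = 0.163, and 0.25, adjusted p = 0.119), in fits that called 0.928% and 2.10% of all genes, and so was the averaged call for Abcb1a. Both settings were added after the data had been seen.

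Ramp2 was the only member for which a difference between the genotype effects of the 2 ages was called. It encodes a receptor activity-modifying protein that pairs with Calcrl to form an adrenomedullin receptor. It had 14.4, 14.4 and 14.9 FPKM in N40K and 17.0, 17.9 and 17.1 FPKM in WT at 12 months (-0.24 ± 0.05, adjusted p = 0.00658). At 3 months the values were 26.8, 30.1 and 30.0 FPKM in N40K and 23.3, 24.2 and 24.1 FPKM in WT (0.27 ± 0.05, adjusted p = 0.00491). The groups were apart at both ages and in opposite order. The N40K effect at 12 minus 3 months was -0.50 ± 0.07 (adjusted p = 0.0246), the only call among 31 members in a contrast that called 0.0645% of all genes, 0.0359% higher and 0.0287% lower. That call was lost in 13 alternative settings, 9 of which left out 1 library (any N40K library or WT replicate 2 at 12 months, N40K replicate 2 or 3 or any WT library at 3 months), with estimates between -0.52 and -0.48 and adjusted p up to 0.559. The contrast called 9 genes in the whole table to begin with. Ramp2 shares exon sequence with Vps25 on the same strand in the annotation, so reads may be shared. Vps25, a gene of endosomal sorting, differed by 0.10 ± 0.05 at 12 months (adjusted p = 0.169) and 0.13 ± 0.05 at 3 months (adjusted p = 0.104), with an effect of -0.03 ± 0.07 at 12 minus 3 months (adjusted p = 0.86).

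For the other members the difference between the ages was not called, although 28 of 31 estimates were positive and 7 members were higher at an unadjusted p under 0.05. Slco1a4 came nearest, with 0.64 ± 0.11 (adjusted p = 0.0869). Flt1 had 0.36 ± 0.10 (adjusted p = 0.185), Abcb1a 0.32 ± 0.10 (adjusted p = 0.203) and Tie1 0.33 ± 0.12 (adjusted p = 0.256). A call at 12 months without one at 3 months is therefore not shown to be a difference between the ages for these genes.

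Most members that changed with age were lower at 12 months, in both genotypes. In N40K mice 18 of 31 members were called, 3 higher and 15 lower at 12 months, against 51.6% of all genes, 15.1% and 36.5% in these directions. In WT mice 24 were called, 1 higher and 23 lower, against 41.6% of all genes, 12.6% and 29.0% in these directions. The median over members was -0.18 in N40K and -0.44 in WT, against -0.10 and -0.077 over all genes. In N40K the member median was -0.095 with median-ratio scaling, against -0.016 over all genes, and -0.31 without replicate 3 of 12 months. Of all called genes 29.3% were higher at 12 months in N40K and 30.3% in WT; with median-ratio scaling these shares were 49.8% and 51.7%, and the members called were 4 higher and 14 lower in N40K and 1 higher and 22 lower in WT. The 12-month libraries lay without overlap above those of 3 months for 4 members and below for 16 in N40K, against 19.1% and 43.7% of all genes (62.8% in all). In WT this held for 1 and 24 members, against 15.7% and 34.5% (50.3% in all). WT 12-month libraries enter both the genotype and the age comparison, so the low WT values at 12 months count in each. All 4 junction genes fell in WT: Cldn5, which seals the tight junction, by 0.47 ± 0.09, Cdh5 by 0.36 ± 0.12 (adjusted p = 0.0274), Pecam1 by 0.40 ± 0.09 and Esam by 0.57 ± 0.09. The Cdh5 call was lost in 9 of 25 alternative settings, among them no filter (adjusted p = 0.052), median-ratio scaling (adjusted p = 0.0554), WT replicate 2 or 3 of 12 months left out and WT replicate 3 of 3 months left out (-0.24, adjusted p = 0.105). Of the 4, Cldn5 and Esam also fell in N40K. Vwf, the clotting carrier von Willebrand factor, fell by 0.61 ± 0.16 in N40K and 0.98 ± 0.16 in WT, and Eng, a co-receptor of the TGF-beta family, by 0.49 ± 0.11 and 0.58 ± 0.11 in N40K and WT. Slco1c1, Slc16a1, Kdr, Emcn and Kcnj8 were called in neither genotype. Tek, Cdh5, Pecam1, Ly6c1, Ly6a, Pdgfrb, Slco1a4 and Abcb1a were called in WT and not in N40K, a difference that was not called in its own test for any of them.

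**Figure D3:**
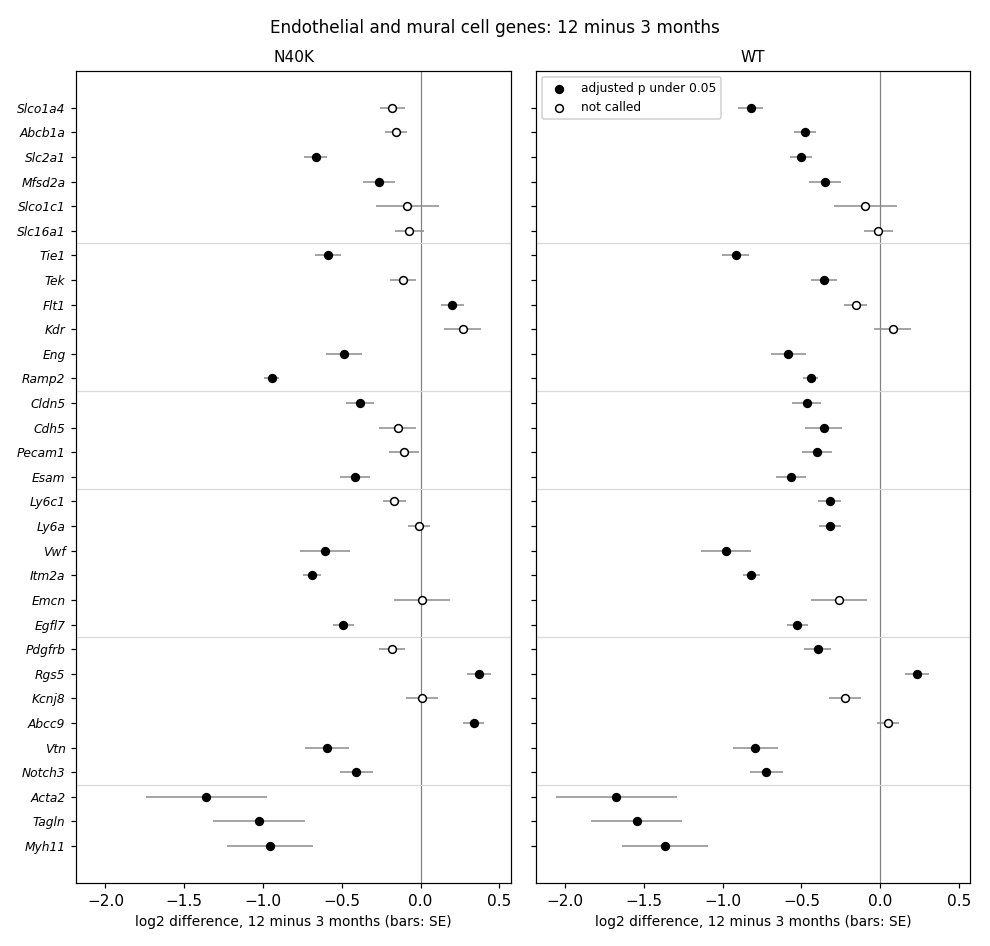
Log2 difference, 12 months minus 3 months, of the 31 tested members in N40K on the left and WT on the right, with bars of 1 SE and filled points for an adjusted p under 0.05. Most points lie left of 0 in both panels, with 25 of 31 in N40K and 28 of 31 in WT, and the smooth muscle genes at the bottom lie farthest left.

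Itm2a, a membrane protein gene enriched in brain endothelium, had the smallest p in WT. It had 23.2, 24.0 and 24.6 FPKM at 12 months and 40.2, 40.9 and 36.5 FPKM at 3 months in N40K (-0.69 ± 0.06, adjusted p = 5.9e-06). In WT it had 22.7, 21.2 and 24.2 FPKM at 12 months and 40.3, 39.5 and 42.4 FPKM at 3 months (-0.82 ± 0.06, adjusted p = 3.61e-06). The 2 genotypes overlapped at each age while the ages were far apart. Tie1 fell by 0.59 ± 0.09 in N40K (adjusted p = 0.000222) and by 0.92 ± 0.09 in WT (adjusted p = 2.53e-05). Egfl7, a secreted endothelial matrix protein, fell by 0.49 ± 0.07 in N40K (adjusted p = 0.000151) and by 0.53 ± 0.07 in WT (adjusted p = 0.000175). Slc2a1 had 27.1, 27.8 and 30.3 FPKM at 12 months and 44.9, 46.2 and 45.7 FPKM at 3 months in N40K, a fall of 0.67 ± 0.07 (adjusted p = 3.35e-05). In WT it had 29.5, 27.5 and 30.2 FPKM at 12 months and 42.1, 36.9 and 46.2 FPKM at 3 months, a fall of 0.50 ± 0.07 (adjusted p = 0.000356). The glucose transporter thus separated by age in both genotypes.

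Slco1a4 fell in WT by 0.82 ± 0.08 (adjusted p = 3.49e-05), to 0.544 times its 3-month mean, whereas in N40K the 12-month mean was 0.876 times the 3-month mean and was not called (-0.18 ± 0.08, adjusted p = 0.0778). Ramp2 fell by 0.95 ± 0.05 in N40K (adjusted p = 2.89e-07) and by 0.44 ± 0.05 in WT (adjusted p = 6.49e-05). Of the pair only Ramp2 had a called difference between these falls, the contrast given above.

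The members that rose were few. Rgs5, a regulator of G protein signalling and a pericyte marker, had 25.4, 22.1 and 24.0 FPKM at 12 months and 19.2, 17.6 and 17.7 FPKM at 3 months in N40K (0.37 ± 0.08, adjusted p = 0.00181). In WT it had 19.3, 23.9 and 22.1 FPKM at 12 months and 17.3, 18.5 and 19.2 FPKM at 3 months (0.23 ± 0.08, adjusted p = 0.028). The WT call was lost in 8 of 26 alternative settings, among them the WT libraries fitted alone and WT replicate 2 or 3 of 12 months or 1 or 2 of 3 months left out, with an estimate as low as 0.17 (adjusted p = 0.095). Its ages did not overlap in either genotype, although in WT the lowest 12-month value was close to the highest at 3 months. Abcc9 rose in N40K by 0.34 ± 0.07 (adjusted p = 0.00159) and was at 0.05 ± 0.07 in WT (adjusted p = 0.586). Flt1 rose in N40K by 0.20 ± 0.07 (adjusted p = 0.0376) and was at -0.16 ± 0.07 in WT (adjusted p = 0.108). Other pericyte genes fell: Vtn by 0.59 ± 0.14 in N40K and 0.79 ± 0.14 in WT, and Notch3, the receptor mutated in the small vessel disease CADASIL, by 0.41 ± 0.10 in N40K and 0.72 ± 0.10 in WT. Pericyte markers therefore did not move as one.

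The contractile genes of smooth muscle had the largest age differences and the least even libraries. Acta2, smooth muscle actin, had 3.67, 2.87 and 8.50 FPKM at 12 months and 16.7, 19.9 and 6.89 FPKM at 3 months in N40K (-1.36 ± 0.38, adjusted p = 0.0117). In WT it had 4.99, 2.87 and 3.55 FPKM at 12 months and 12.5, 11.8 and 18.9 FPKM at 3 months (-1.68 ± 0.38, adjusted p = 0.00523). The ages were apart in WT but overlapped in N40K, where the libraries numbered 3, separate samples at each age, were the highest at 12 months and the lowest at 3 months. Tagln, the actin-binding protein transgelin, had 4.51, 3.48 and 7.70 FPKM at 12 months and 13.5, 14.9 and 6.87 FPKM at 3 months in N40K (-1.03 ± 0.29, adjusted p = 0.0115). In WT it had 4.31, 2.83 and 3.48 FPKM at 12 months and 11.4, 9.93 and 15.8 FPKM at 3 months (-1.55 ± 0.29, adjusted p = 0.0017). The same N40K libraries stood out.

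Myh11, smooth muscle myosin, had 1.65, 1.09 and 2.31 FPKM at 12 months and 5.21, 5.54 and 2.29 FPKM at 3 months in N40K (-0.96 ± 0.27, adjusted p = 0.0121). In WT it had 1.34, 0.704 and 1.22 FPKM at 12 months and 4.08, 3.21 and 6.05 FPKM at 3 months (-1.36 ± 0.27, adjusted p = 0.00243). Calponin, Cnn1, was at 0.118, 0.0892 and 0.639 FPKM at 12 months and 1.03, 0.927 and 0.265 FPKM at 3 months in N40K, and at 0.148, 0.114 and 0.176 FPKM at 12 months and 0.659, 0.468 and 1.08 FPKM at 3 months in WT. The N40K libraries numbered 3 were again the highest at 12 months and the lowest at 3 months, without a test. Without replicate 2 of N40K at 12 months or replicate 2 of N40K at 3 months, the N40K calls of Acta2, Tagln and Myh11 were lost, with adjusted p up to 0.0525. Without the outlying replicate 3 of N40K, the Acta2 difference was -1.75 (left out at 12 months) or -1.79 (left out at 3 months).

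**Figure D4:**
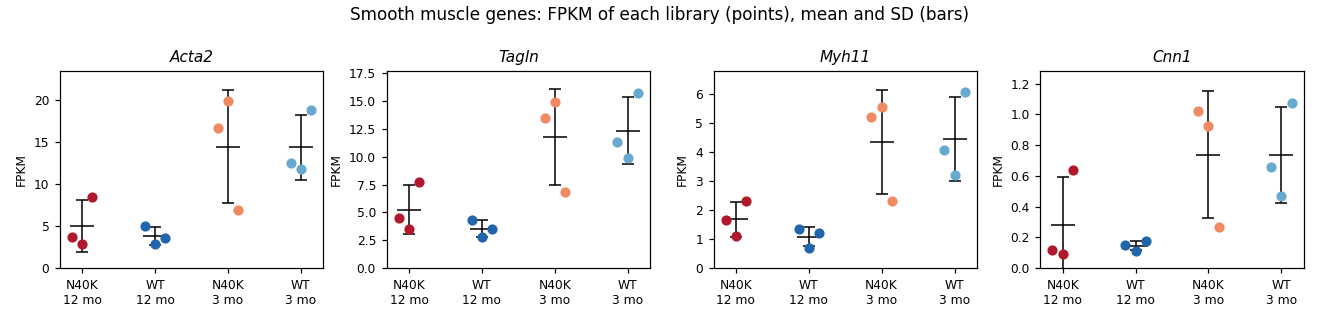
FPKM of Acta2, Tagln, Myh11 and Cnn1, one point per library, with bars for the group mean and SD, in the 4 groups. In WT the 12-month points lie below the 3-month points for all 4 genes, while in N40K the library numbered 3 lies above the rest of its group at 12 months and below it at 3 months.

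Smooth muscle contractile genes are classic targets of serum response factor, which binds the CArG box. The 100 bases before the Acta2 start are shown because they hold a pair of CArG boxes in which 1 inner base departs from the consensus, in capitals. The sequence is RefSeq, GRCm38.p6, chr19:34255374-34255473 on the minus strand, 5′ to 3′.
Acta2: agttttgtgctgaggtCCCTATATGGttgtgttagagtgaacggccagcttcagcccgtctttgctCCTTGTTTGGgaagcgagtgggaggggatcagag

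The boxes began 84 and 34 bases before the start. The exact CArG box was in 0 of the 23 member windows and in 1.81% of all genes. With 1 inner base free it was in 1 of the 7 mural windows (Acta2) and 5 of the 16 endothelial windows, against 11.3% of all genes. Srf, the factor itself, was higher in N40K at 3 months (0.15 ± 0.04, adjusted p = 0.0343) but not at 12 months (-0.03 ± 0.04, adjusted p = 0.58).

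Markers of other cells moved with some of these results. Fibroblasts of the vessel wall and meninges share dissected tissue with smooth muscle: their 10 markers summed to 48.3 to 103 FPKM in N40K and 68.5 to 84.6 FPKM in WT at 12 months, and to 49.5 to 107 FPKM in N40K and 64.2 to 136 FPKM in WT at 3 months. The N40K libraries numbered 3 had the highest fibroblast sum of their group at 12 months and the lowest at 3 months, the places they held for smooth muscle. Choroid plexus markers (3765 and 164 FPKM in these libraries) and ependymal markers (36.9 and 25.3 FPKM) held the same places. With age, 3 of the 10 fibroblast markers fell and 1 rose in N40K, where 36.5% of all genes fell and 15.1% rose. In WT 4 of them fell, against 29.0% of all genes. Choroid plexus markers summed to 91.3 to 3765 FPKM in N40K and 1343 to 2726 FPKM in WT at 12 months, and to 164 to 2074 FPKM in N40K and 232 to 6912 FPKM in WT at 3 months. By limma 0 of these 12 markers were called in any comparison, also at an unadjusted p under 0.05. None of the fibroblast or choroid markers was at 0 in any library. Beyond settings with libraries left out or Ttr as a covariate, the part of these markers in smooth muscle and other results was not tested. With Ttr as a covariate the N40K age differences (limma) were -1.38 for Acta2 (adjusted p = 0.00182) and -1.04 for Tagln (adjusted p = 0.00204). Myh11 had -0.97 (adjusted p = 0.00336).

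Interferon response genes were also higher in N40K at 12 months, with 7 of 10 called higher, against 11.2% of all genes. Their sums were 30.0 to 61.7 FPKM in N40K and 19.2 to 24.7 FPKM in WT. At 3 months the sums were 31.9 to 35.5 FPKM in N40K and 39.7 to 48.8 FPKM in WT. There 1 of 10 was called higher, against 7.95% of all genes, while 9 of 10 estimates were negative, with a median of -0.40. At an unadjusted p under 0.05 (limma) 4 were lower. With age, 4 interferon response genes rose and 1 fell in N40K and 7 fell in WT. Of all genes 15.1% rose and 36.5% fell in N40K, and 12.6% rose and 29.0% fell in WT. Ly6a, a member known to be induced by interferon, was not called at 12 months (0.14 ± 0.07, adjusted p = 0.176). By limma 0 of 8 astrocyte markers and 0 of 5 red blood cell markers were called at 12 months, 0 also at an unadjusted p under 0.05, and blood markers summed to 174 to 221 FPKM in N40K and 235 to 279 FPKM in WT. With age 3 of the 5 blood markers fell in N40K, and by limma 0 in WT (0 at an unadjusted p under 0.05). At 12 months 3 of 8 neuronal markers and 1 of 8 microglial markers were lower in N40K, against 7.71% of all genes. By limma 0 of 6 ependymal, 0 of 3 tested perivascular macrophage and 0 of 8 oligodendrocyte markers were called. At an unadjusted p under 0.05 these counts were 0, 0 and 1. Oligodendrocyte markers fell with age in 5 of 8 in each genotype. Of the 8 astrocyte markers 1 rose and 3 fell with age in N40K, and 1 rose and 2 fell in WT. Of the 8 neuronal markers 3 rose and 3 fell with age in N40K, and 3 rose and 2 fell in WT. The part of these markers in the vascular results was not tested.

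**Figure D5:**
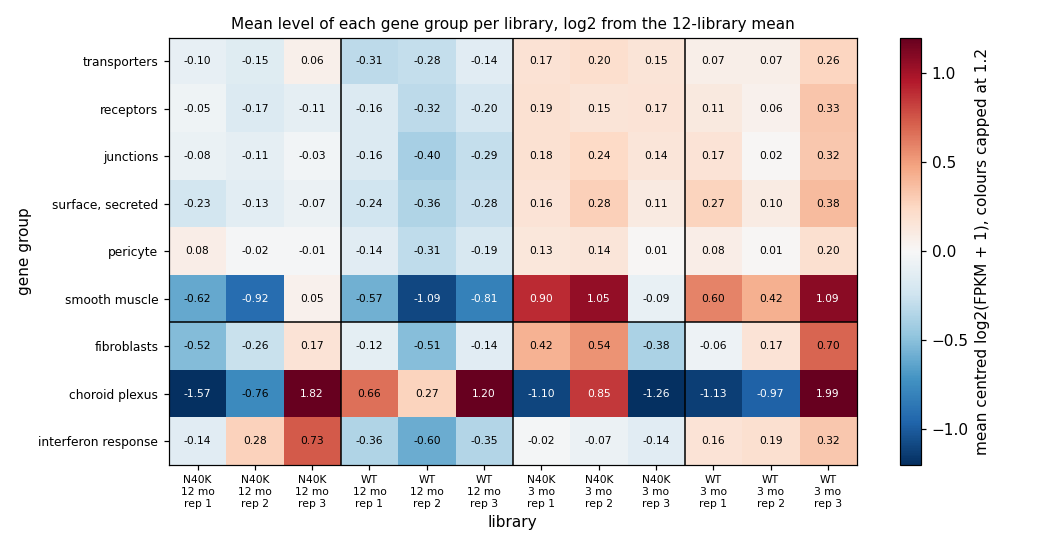
Mean level per library (log2(FPKM + 1), centred gene by gene on all 12 libraries and averaged over a group) of the 6 groups of members and, under the line, of fibroblast, choroid plexus and interferon response markers. Each endothelial group is lower in the WT libraries at 12 months than in those at 3 months, and smooth muscle and fibroblast levels are both lowest for N40K at 3 months in the library numbered 3.

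Further vascular genes were counted from lists of ligands, Wnt signalling, endothelium, mural cells and basement membrane. At 12 months 6 of 44 further endothelial genes were higher in N40K, led by the taurine transporter Slc6a6 (0.50 ± 0.06, adjusted p = 0.000646), the adhesion receptor Gpr116 (0.47 ± 0.09, adjusted p = 0.005), the endothelial phosphatase Ptprb, which acts on the receptor Tek (0.38 ± 0.09, adjusted p = 0.0181), and the amino acid transporter Slc7a1 (0.20 ± 0.05, adjusted p = 0.0239). By limma 0 were lower, 0 also at an unadjusted p under 0.05. Slc6a6 is also made by other brain cells. Of 19 ligands 3 were higher and 1 lower: the Notch ligand Jag2 (0.39 ± 0.07, adjusted p = 0.00277), Pdgfb, the ligand of Pdgfrb (0.25 ± 0.05, adjusted p = 0.00784), Vegfa, the ligand of Flt1 and Kdr (0.33 ± 0.08, adjusted p = 0.0223), and Tgfb2 (-0.32 ± 0.09, adjusted p = 0.0315). Neurons and glia make several of these ligands. One of 21 mural genes (the pericyte ATPase Atp13a5, 0.35 ± 0.08, adjusted p = 0.0131), 1 of 16 Wnt genes (Sox17, 0.33 ± 0.09, adjusted p = 0.0222) and 2 of 13 basement membrane genes (the laminin chain Lama4, 0.37 ± 0.11, adjusted p = 0.0336, and fibronectin Fn1, 0.42 ± 0.13, adjusted p = 0.0444) were higher. Of all genes 11.2% were called higher and 7.71% lower in this comparison, so most of these counts were near or below that share.

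At 3 months the calls were fewer, and Jag2 was the only gene of these lists called at both ages. In N40K 2 of 19 ligands were higher, Jag2 (0.31 ± 0.07, adjusted p = 0.0119) and Wnt7b, a neural ligand that maintains the barrier (0.25 ± 0.06, adjusted p = 0.0196). So was 1 of 21 mural genes, Srf, given above. The collagen gene Col4a1 (-0.55 ± 0.10, adjusted p = 0.00571), 1 of 13 basement membrane genes, was lower. The endothelial sialomucin gene Cd34 (-0.26 ± 0.07, adjusted p = 0.0405), 1 of 44 endothelial genes, was also lower. In this comparison 7.95% of all genes were called higher and 3.49% lower, so these small counts were near the background. Col4a1 had 9.80, 8.70 and 8.19 FPKM in N40K and 13.9, 12.8 and 13.5 FPKM in WT, with a wide gap between the groups. With age, 16 of the 44 endothelial, 11 of the 21 mural and 2 of the 13 basement membrane genes fell in N40K, where 36.5% of all genes fell, and 25, 15 and 6 of them fell in WT, where 29.0% of all genes fell. In N40K 3 of the endothelial genes rose, and 15.1% of all genes rose there, against 12.6% of all genes in WT. Of the 16 Wnt genes 6 fell and 1 rose in N40K, and 7 fell and 1 rose in WT. Of the 19 ligands 9 fell in N40K, and 8 fell and 1 rose in WT.

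Egfl7 holds the miRNA miR-126 in an intron, an abundant regulator of endothelial VEGF signalling. The mature miR-126a-3p of RefSeq (GRCm38.p6, chr2:26591402-26591423, plus strand) is given with its seed, bases 2 to 8, in capitals.
mmu-miR-126a-3p: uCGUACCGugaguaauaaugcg

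Poly-A libraries do not measure the mature miRNA. The table's Mir126 entry, looked at after its values had been seen, had 1.92, 1.67 and 2.10 FPKM in N40K and 0.425, 0.926 and 1.41 FPKM in WT at 12 months (0.62 ± 0.16, adjusted p = 0.0184). Egfl7 itself had 16.2, 18.8 and 18.5 FPKM in N40K and 17.2, 15.6 and 15.8 FPKM in WT (0.13 ± 0.07, adjusted p = 0.2). The short entry was separate between the groups and the host gene overlapped. At such low FPKM a short entry rests on few fragments per library, and no counting error is given, so this contrast is uncertain. At 3 months Mir126 was not called (0.35 ± 0.16, adjusted p = 0.186). Its 12-month mean was 0.474 times the 3-month mean in N40K and 0.313 times in WT. For Egfl7 these ratios were 0.701 and 0.682. Mir126a overlaps exon sequence of some Egfl7 transcripts on the same strand in the annotation. Fragments of Egfl7 transcripts may therefore count in the Mir126 entry. Egfl7 also shares exon sequence with Agpat2 in the annotation, so its reads, like those of Eng (with Fpgs) and Tagln (with Pcsk7), may include those of a neighbour.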

How the data were processed

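Poly-A RNA of 12 mouse hippocampus libraries was analysed, 3 in each of 4 groups. The authors deposited FPKM values in 1 table, made from paired 100 bp TruSeq libraries run on an Illumina HiSeq per the labels' protocols. CASAVA, STAR, BWA and mm9 are named in the submitters' processing notes without roles, and the counting tool, annotation and strand setting are not given in the sources used here. All 12 columns matched the labels. The tissue label is hippocampus, although the extraction protocol speaks of tumor aliquots. Same-numbered WT libraries of the 2 ages deviated together (correlations 0.246 to 0.343 over genes), which the labels do not explain, and the block changed no call there. Nothing in the labels says that libraries are separate animals beyond the stated group sizes, so p-values measure the spread between these samples. FPKM are not counts and no count test was run: at a tolerance of 0.02 of a read, 57.6% to 78.1% of low values were whole reads, which leaves depths approximate. FPKM sums were 309358 to 350760 per library, and any pair of libraries shared at most 0.0159% identical values.

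One limma model (limma 3.58.1, R 4.3.3) with 4 group means was fitted to log2(FPKM + 1) for the 13945 entries with at least 1 FPKM in at least 3 libraries, with eBayes and a mean-variance trend, two-sided, Benjamini-Hochberg adjusted over all genes at 0.05. Fold changes on that scale understate low genes. Linear ratios divide group means. Of all entries 128 carry joined names. The fit was tested on simulated data. The members and lists were chosen with earlier results of these data known. Named genes are members called by genotype, the 5 smallest p of each direction for age, and up to 4 called genes per list; smooth muscle and junction genes and Mir126 were added after their values were seen. Alternatives were 2 other pseudocounts, filters, median-ratio and quantile scaling, Xist or Ttr as covariates, robust eBayes, the replicate block, each age or genotype alone and each library left out. Promoters (23 of 32 members matched) and miRNA sequences come from RefSeq tables of GRCm38.p6. Python 3.11.15, pandas 2.3.3, numpy 2.4.6 and matplotlib 3.10.9 were used.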

Additional observations from a re-analysis of the deposited data

Results flagged for a closer look

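Ramp2 had opposite genotype differences at the 2 ages, lower in N40K at 12 months and higher at 3 months, and the difference between them was called (-0.50 on the log2 scale, adjusted p = 0.0246, limma). Flt1 had all 3 N40K libraries at 12 months above all 3 at 3 months, while all 3 WT libraries at 12 months were below all 3 at 3 months; the difference between the age changes was 0.36 on the log2 scale and missed the threshold (adjusted p = 0.185, limma).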

How the results depend on the processing

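No called difference of a member changed direction in any alternative setting. Of 52 such differences 34 kept their call in every setting, among them Slco1a4, Abcb1a and Flt1 between N40K and WT at 12 months, and 18 lost it in at least 1. At 12 months 6 members were called between N40K and WT, and 4 to 7 with 1 library left out. Without the library highest in Ttr of each group 3 were called, and with Ttr as a covariate 8. At 3 months 1 member was called, 1 with any library left out, and 0 without the libraries with Xist reads (1 at an unadjusted p under 0.05, limma) or without the library highest in Ttr of each group (2), while the share of all genes called fell to 0.928% and 2.10%, against 11.4%. Averaged over both ages 2 were called, 2 to 4 with 1 library left out (4 without N40K replicate 1 at 12 months or WT replicate 3 at 3 months), 5 with Ttr as a covariate, 4 with the replicate block and 1 without the libraries with Xist reads. For the N40K effect at 12 minus 3 months 1 was called, 0 to 2 with 1 library left out (2 without WT replicate 3 at 12 months or N40K replicate 1 at 3 months), and by limma 0 with Xist as a covariate (9 at an unadjusted p under 0.05), 0 with the replicate block (8), 0 without the libraries with Xist reads (6) and 0 without the library highest in Ttr of each group (7). Calls over all genes moved with these counts: 9 genes of the table were called at first, 20 without WT replicate 3 at 12 months and 162 without N40K replicate 1 at 3 months. The member counts therefore say nothing about the members alone. The settings that drop Xist or Ttr libraries were added after seeing the data, and they leave fewer samples; the cause of the other shifts was not tested. With age, 13 to 21 members were called in N40K and 18 to 25 in WT. The replicate block left the counts at 12 months, at 3 months and with age as they were. At 12 months, though, Abcc9 lost its call with the block (adjusted p = 0.0681, limma) and Notch3 gained one. For both genotype comparisons and for age in N40K, same-numbered libraries did not all correlate (-0.457 to 0.197). Deviations from means of 3 libraries cannot show whether such samples shared more than a number. Same-numbered libraries of N40K at 12 months and WT at 3 months all correlated (0.254 to 0.723), which the labels do not explain. For age in WT every same-numbered pair exceeded 0.1, and with the replicate block on the WT libraries alone, added after seeing the data, 24 members were called, 23 of them lower, and each member called without the block kept its call. Leaving out 1 library moved a called value by over 1.5 times, each time with the call lost, for Cdh5 with age in WT (-0.24 without WT replicate 3 at 3 months, adjusted p = 0.105) and for Mfsd2a (-0.16, adjusted p = 0.19) and Flt1 (0.13, adjusted p = 0.161) with age in N40K without N40K replicate 1 at 12 months. Depths are approximate, so no counting error is given for low genes.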
